A study of Mus musculus with 4 samples.

Results

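Cells that made Wnt3a, the classical ligand of canonical Wnt signalling, were set against cells that made Wnt5a, the best-known noncanonical ligand, and their microRNAs (miRNAs) were compared. Both samples were MC3T3-E1 cells, a clonal osteoblast-like line from newborn mouse calvaria, kept in proliferation medium after an adenovirus vector had been used to overexpress the Wnt gene. The comparison was chosen by its sample labels: 2 of the 4 arrays of the series, 1 with Wnt3a and 1 with Wnt5a, and all 1898 usable miRNA probes on them. The other 2 arrays held RNA of cells with Wnt4 and of cells with GFP, the control protein, each from the same kind of vector, so every array came from cells that had met an adenovirus. They took part in the normalization and are quoted beside the results, but not in the difference. With 1 array per group there is no replicate check and no p-value, and a difference is between these 2 arrays. The arrays carry probes for miRNAs, so the Wnt ligands themselves were not checked here, and the labels give neither the vector's dose nor the time after infection.

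Canonical Wnt ligands stabilise beta-catenin, which enters the nucleus and acts with TCF and LEF factors on target genes. Noncanonical ligands act through other routes, such as calcium release and cell polarity pathways, and Wnt5a can also restrain beta-catenin signalling. In bone, beta-catenin signalling in osteoblast precursors favours bone formation. A miRNA is a short RNA that lowers the output of messenger RNAs by pairing with them, chiefly through its seed, the bases 2 to 8 from its 5′ end. miRNAs with 1 seed can share targets, and miRNAs cut from 1 transcript can share its regulation.

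The sequences of the miRNAs that differed most are shown first, because their seeds decide how they are grouped below. They are the RefSeq mature sequences of build GRCm38.p6, 5′ to 3′, with the seed in capitals, and the first 5 gave lower and the last 2 higher levels with Wnt3a.
miR-140-3p: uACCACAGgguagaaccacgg
miR-146b-5p: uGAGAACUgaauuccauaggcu
miR-322-5p: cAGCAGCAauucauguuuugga
miR-503-5p: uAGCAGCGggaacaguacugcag
miR-708-5p: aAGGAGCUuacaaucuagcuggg
miR-711: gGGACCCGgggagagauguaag
miR-7036a-5p: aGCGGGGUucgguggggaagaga

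The mature miR-140-3p lies at chr8:107551288-107551308 on the plus strand, within the gene Wwp2. miR-146b-5p lies at chr19:46342790-46342811 on the plus strand. Mature miR-322-5p, at chrX:53054306-53054327, and miR-503-5p, at chrX:53054027-53054049, are neighbours on the minus strand. miR-708-5p lies at chr7:96249450-96249472 on the plus strand, within Tenm4. miR-711 is at chr9:108969970-108969991 on the plus strand, where it overlaps Col7a1. miR-7036a-5p is at chr5:137296661-137296683 on the minus strand, where it overlaps Srrt.

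Detection required a raw spot median past a limit set from blank spots, 81.7 intensity units with Wnt3a and 111 with Wnt5a. The Wnt3a array detected 1063 of the 1898 miRNAs and the Wnt5a array 502, and 501 were detected on both. The 501 carry the comparison. The blank spots averaged 73.0 units with Wnt3a and 97.1 with Wnt5a, while the median miRNA spot gave 84.0 and 90.7 in the same order, so on the Wnt5a array the typical miRNA spot was dimmer than a blank. Bright control probes, by contrast, were almost equal: the spike named Spike 2 gave 36147 units with Wnt3a and 35336 with Wnt5a, and the mean log2 difference of the 5 such probes was 0.02. Among markers of other cell types, those of liver were detected on neither array, those of endothelium on 2 and 0 of 4, and those of epithelium on 5 and 0 of 12. Muscle markers were detected on 4 and 2 of 15, blood cell markers on 6 and 3 of 12, neural markers on 14 and 4 of 22, and pluripotency markers on 8 and 1 of 22, in the order Wnt3a and Wnt5a. Of 19 mesenchymal probes, 17 were detected with Wnt3a and 14 with Wnt5a, beside 1063 and 502 of 1898 over all. Both were larger shares than over all probes, but so was the share of neural markers with Wnt3a. The identity of the cells rests on the labels and was not tested.

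Most of the 501 miRNAs differed little. On the normalized log2 scale the difference, Wnt3a minus Wnt5a, was above 0 for 245 and below 0 for 246. It had a median of 0.00 and quartiles of -0.13 and 0.14. A standard error (SE) of 0.17 was estimated from replicate spots of bright control probes, and covers spot-to-spot variation within an array only. Blank spots varied more, with an SD of 0.19 for a difference between the 2 arrays, so for dim miRNAs such as miR-125b-2-3p and miR-146b-5p on the Wnt3a array the SE is too small. Of the 501, 431 (86.0%) lay within 0.33 of 0, that is within 2 such SE. Levels on the 2 arrays correlated at a Pearson's r of 0.982 across miRNAs, which are not independent replicates. At least 2-fold lower with Wnt3a were 6 miRNAs (1.20%), and 2 (0.399%) were at least 2-fold higher. At least 1.5-fold lower were 12 (2.40%), and 9 (1.80%) were at least 1.5-fold higher. Together 8 of 501 (1.60%) passed 2-fold and 21 (4.19%) passed 1.5-fold.

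**Figure D1:**
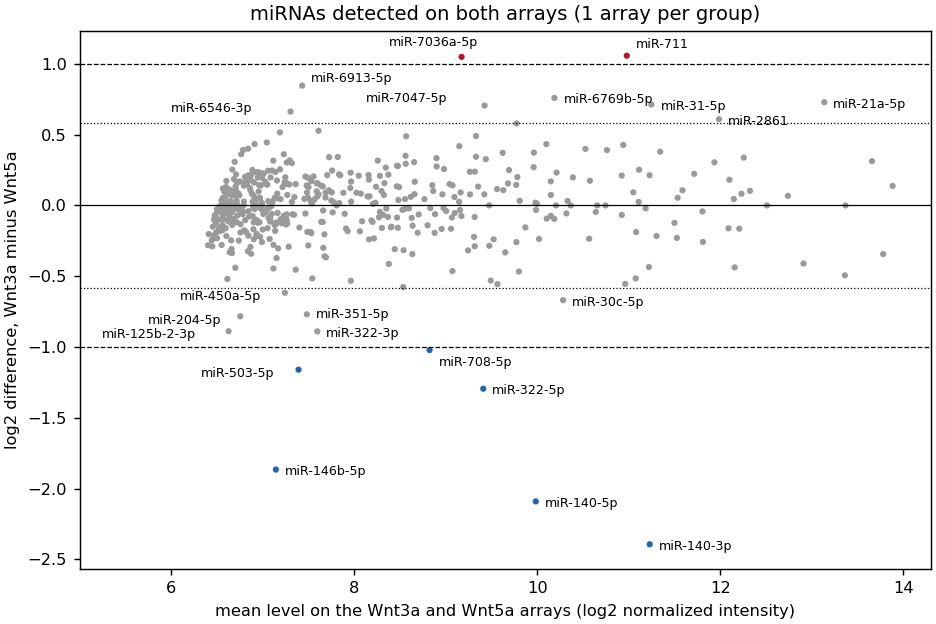
Log2 difference (Wnt3a minus Wnt5a) of the 501 miRNAs detected on both arrays, against their mean level on those arrays. Dashed lines mark 2-fold and dotted lines 1.5-fold; 6 miRNAs lie below the lower dashed line and 2 above the upper one, with both arms of miR-140 lowest.

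Both arms of miR-140, a miRNA known for its part in cartilage and growth plate development, were the lowest of all. miR-140-3p gave 1135 units on the Wnt3a array, against 5727 on the Wnt5a array, with 5582 on the Wnt4 array and 7049 on the GFP array. The Wnt3a array alone was low and the other 3 lay close together. The log2 difference between Wnt3a and Wnt5a was -2.39, or 5.25-fold lower. miR-140-5p, the other arm of the same hairpin, gave 535 units with Wnt3a, 2142 with Wnt5a, 2096 with Wnt4 and 2379 with GFP, and differed by -2.09, or 4.26-fold. It was again low on 1 array of 4. Both arms passed 2-fold in 15 of 16 alternative processings, all but the authors' deposited table as listed, where nearly all miRNAs are shifted upward with Wnt3a. In that table miR-140-3p was at -0.70 and miR-140-5p at -0.44, while the median miRNA was at 2.04. The alternatives that change only the detection limit or drop the filter keep a difference as it is, so they pass whenever the probe is kept.

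The X-linked cluster of miR-322, miR-503 and miR-351 was lower with Wnt3a for most of its miRNAs detected on both arrays. These miRNAs are processed from a shared region, and miR-322 and miR-503 are known to slow the cell cycle and to take part in muscle and bone cell differentiation. miR-322-5p gave 475 units with Wnt3a, against 1126 with Wnt5a, 903 with Wnt4 and 990 with GFP. Its difference of -1.29 corresponds to 2.45-fold lower. miR-503-5p gave 130 units with Wnt3a and 281 with Wnt5a, with 248 on the Wnt4 and 285 on the GFP array, and was 2.23-fold lower at -1.16. As for miR-140, the Wnt3a array stood below the other 3 for both. miR-322-3p was at -0.89 (159 units with Wnt3a and 299 with Wnt5a), miR-351-5p at -0.77 (154 and 261) and miR-450a-5p at -0.62 (140 and 211). The exception was miR-351-3p, at -0.04 with 222 and 235 units. Of 13 probes of the cluster, 6 were detected on both arrays, and all 6 differences were below 0, with a median of -0.83 beside 0.00 over all 501. With the background column 2 were above and 4 below, with a median of -0.18, and with no filter 3 of 13 were above, with a median of -0.24. At least 1.5-fold lower were 5 of the 6, where the share over all miRNAs was 2.40%. Another 3 probes were detected with Wnt3a only, beside 562 of 1898 over all, and the rest on neither array. In the deposited table as listed the direction of miR-322-5p and miR-503-5p turned, to 0.35 and 0.02, values that still lie below that table's median of 2.04. With the file's background column subtracted miR-322-5p turned as well, to 0.94.

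miR-322-5p belongs by its seed to the miR-15/16 family, whose known targets include cyclins and other drivers of cell division. The family is shown because its members lie on several chromosomes and share the seed, given in capitals.
miR-322-5p: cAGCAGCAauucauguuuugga
miR-15b-5p: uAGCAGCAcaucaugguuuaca
miR-195a-5p: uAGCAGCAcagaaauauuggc
miR-497a-5p: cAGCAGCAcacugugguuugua
miR-15a-5p: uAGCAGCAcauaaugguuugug
miR-16-5p: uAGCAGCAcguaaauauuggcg

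All 6 of these were below 0, with a median of -0.39, but the sizes were spread widely. After miR-322-5p came miR-15b-5p at -0.58, with 340 units on the Wnt3a and 485 on the Wnt5a array. miR-195a-5p was at -0.41 (312 and 415 units), miR-497a-5p at -0.37 and miR-15a-5p at -0.32 (369 and 439 units). miR-16-5p, by far the brightest of the family at 3374 and 4162 units, was at -0.04, within the spot noise. miR-15b-5p and miR-16-5p come from neighbouring hairpins, as do miR-15a-5p and the other copy of miR-16. The value of miR-16-5p depended on the scaling: it was -0.30 without normalization between arrays and -0.37 under median scaling, where miR-15a-5p was at -0.23 and -0.30. Counting both arms, 7 of 15 probes of the family were detected on both arrays. All were below 0 with a median of -0.41, and 2 of them, both arms of miR-322, were at least 1.5-fold lower, beside 2.40% over all. With the background column 3 were above and 4 below 0, with a median of -0.03, and with no filter the median of the 15 was -0.16.

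miR-146b-5p, of a family known to restrain NF-kappaB signalling, showed the third largest difference. It gave 86.3 units on the Wnt3a array, against 303 on the Wnt5a, 232 on the Wnt4 and 299 on the GFP array. The Wnt3a value was close to that array's limit of 81.7, while the other 3 arrays were well above theirs. The log2 difference was -1.87, or 3.64-fold, and ranged from -5.75 to -0.09 over the 14 alternatives that gave it a value. Its paralog miR-146a-5p was detected on neither array, at 75.8 units with Wnt3a and 91.3 with Wnt5a. miR-155-5p, another miRNA tied to inflammatory signalling, was detected with Wnt3a only, at 135 units against 86.6 with Wnt5a, which gives at least 1.29-fold higher. Of the 6 probes for miR-146 and miR-155, miR-146b-5p was the only 1 detected on both arrays.

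miR-708-5p is shown again beside miR-28a-5p, which has the same seed.
miR-708-5p: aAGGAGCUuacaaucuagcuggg
miR-28a-5p: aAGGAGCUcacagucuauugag

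miR-708-5p gave 356 units with Wnt3a, against 676 with Wnt5a, 568 with Wnt4 and 658 with GFP, so the Wnt3a array was again the low one. Its difference of -1.02, or 2.03-fold, stood just past the threshold. It stayed past 2-fold in 9 of 15 alternatives, leaving aside the deposited table as listed. Those that change only the detection limit or drop the filter keep this difference as it is. Among the rest it passed only with a normexp offset of 16, plain subtraction, cyclic loess, 2-array quantile normalization and the rescaled deposited table. In the deposited table as listed it turned to 0.67. miR-28a-5p, at 227 units with Wnt3a and 231 with Wnt5a, was at 0.06, so the 2 miRNAs with this seed differed by unequal amounts. miR-204-5p, a known repressor of Runx2 in mesenchymal cells, gave 96.6 units with Wnt3a and 164 with Wnt5a, a difference of -0.78. Its opposite arm miR-204-3p was at 0.13, which was the widest gap between arms of any hairpin. In the group of miR-204, miR-211, miR-708 and miR-196, 5 of 11 probes were detected on both arrays, 3 below 0 and 2 above, with a median of -0.44. miR-196a-5p, known for its Hox gene targets, was at -0.44 and miR-211-3p at 0.34. The sign of that median depended on which dim probes were kept: it was 0.13 with the limit from negative control probes and 0.04 with no filter.

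The miR-30 family is reported to target Runx2 and Smad1 in osteoblasts. Its members detected on both arrays were all lower with Wnt3a, each by a modest amount. The sequences of 3 of them show the common seed.
miR-30c-5p: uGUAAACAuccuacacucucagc
miR-30a-5p: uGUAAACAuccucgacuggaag
miR-30e-5p: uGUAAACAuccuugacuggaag

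miR-30c-5p gave 1088 units on the Wnt3a and 1726 on the Wnt5a array, with 1461 on the Wnt4 and 1509 on the GFP array, and differed by -0.67. miR-30a-5p was at -0.56 (690 and 1001 units), miR-30d-5p at -0.53 (658 and 948), miR-30b-5p at -0.33 (782 and 980) and miR-30e-5p at -0.23 (297 and 352). Of 11 probes, 8 were detected on both arrays. All 8 were below 0, between -0.67 and -0.23 with a median of -0.45, although 1 of the 8 reached 1.5-fold, against 2.40% over all. With the background column 5 were above and 3 below 0, with a median of 0.03, and with no filter 1 of 11 was above.

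The medians of let-7, of the families clustered with it and of the miR-29 family lay below 0 by smaller amounts. let-7, known for its rise as cells differentiate and its control by Lin28, had 11 of 22 probes detected on both arrays. Of these, 8 were below 0 and 1 above, with a median of -0.16, and none reached 1.5-fold. Under median scaling all 11 were below 0 with a median of -0.33, and with the background column 6 were above and 5 below with a median of 0.09. The largest was let-7j at -0.46, while the bright let-7a-5p, with 4971 units on the Wnt3a and 6083 on the Wnt5a array, was at 0.00. For let-7c-5p the difference was -0.16 (3982 and 5308 units). In the group of miR-125, miR-99 and miR-100, 8 of 11 probes were detected on both arrays, 6 below and 2 above 0, with a median of -0.28. miR-99a-5p was at -0.55 and miR-100-5p at -0.52 (1877 units with Wnt3a and 2944 with Wnt5a), whereas miR-99b-5p, which shares their seed, was at 0.03. miR-125b-5p, a bright miRNA known to hold back osteoblast differentiation, gave 11306 units with Wnt3a, 12726 with Wnt5a, 12399 with Wnt4 and 14365 with GFP. Its normalized difference was -0.49, more than its raw values differ. miR-125b-2-3p, the other arm of 1 of its hairpins, was dim: 85.0 units with Wnt3a, 156 with Wnt5a, 88.5 with Wnt4 and 118 with GFP. It differed by -0.89 and was the only 1 of the 21 miRNAs past 1.5-fold for which the Wnt5a array stood farther from the Wnt4 and GFP arrays than the Wnt3a array did. For the miR-29 family, known to target collagen mRNAs, 3 of 7 probes were detected on both arrays and all 3 were below 0: miR-29b-3p at -0.47, miR-29a-3p at -0.22 and miR-29c-3p at -0.09. In the deposited table as listed, whose median is shifted, the medians of the X-linked cluster and of the miR-15/16, miR-204, miR-30, let-7, miR-125 and miR-29 groups all lay above 0.

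The miRNAs at least 2-fold higher with Wnt3a were less well characterised ones. miR-711 gave 2865 units on the Wnt3a array, against 1494 on the Wnt5a, 1247 on the Wnt4 and 1336 on the GFP array. Here the Wnt3a array was the high one and the other 3 lay together. The difference was 1.06, or 2.08-fold. miR-7036a-5p gave 856 units with Wnt3a, 428 with Wnt5a, 337 with Wnt4 and 385 with GFP, and was 2.07-fold higher at 1.05. Both stood just past 2-fold. Leaving aside the deposited table as listed, where nearly all miRNAs pass, miR-711 passed it in 8 of 15 alternatives and miR-7036a-5p in 10. Those that change only the detection limit or drop the filter keep both differences as they are. Among the rest, miR-711 passed only with a normexp offset of 16, no background correction, plain subtraction and 2-array quantile normalization. miR-7036a-5p passed in those, without normalization and under control-probe scaling. Under median scaling, upper quartile scaling and cyclic loess neither passed. miR-711 turned to -2.23 with the background column. Between 1.5-fold and 2-fold lay miR-6913-5p at 0.85 (256 units with Wnt3a and 150 with Wnt5a), miR-6769b-5p at 0.76 (1585 and 967), miR-7047-5p at 0.71 (875 and 565) and miR-6546-3p at 0.66 (220 and 147). All 4 were highest on the Wnt3a array of the 4 arrays.

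miR-21a-5p and miR-31-5p, both often raised in dividing or transformed cells, were the well-known miRNAs higher with Wnt3a.
miR-21a-5p: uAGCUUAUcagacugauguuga
miR-31-5p: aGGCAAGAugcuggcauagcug

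miR-21a-5p gave 12510 units on the Wnt3a array, against 7619 on the Wnt5a, 6673 on the Wnt4 and 6669 on the GFP array, a difference of 0.73. miR-31-5p gave 3071 units with Wnt3a, 1917 with Wnt5a, 1670 with Wnt4 and 2017 with GFP, a difference of 0.71. Both gave their highest raw signal with Wnt3a. For miR-21a-5p the normalized log2 levels on the other 3 arrays spread over 0.69, nearly as much as its difference, and for miR-31-5p over 0.07. The other arm, miR-31-3p, was at 0.53. In this small group, put together with earlier results of these data known, 3 of 6 probes were detected on both arrays, all above 0. Of these, 2 passed 1.5-fold, beside 1.80% over all, which describes the group and tests nothing.

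**Figure D2:**
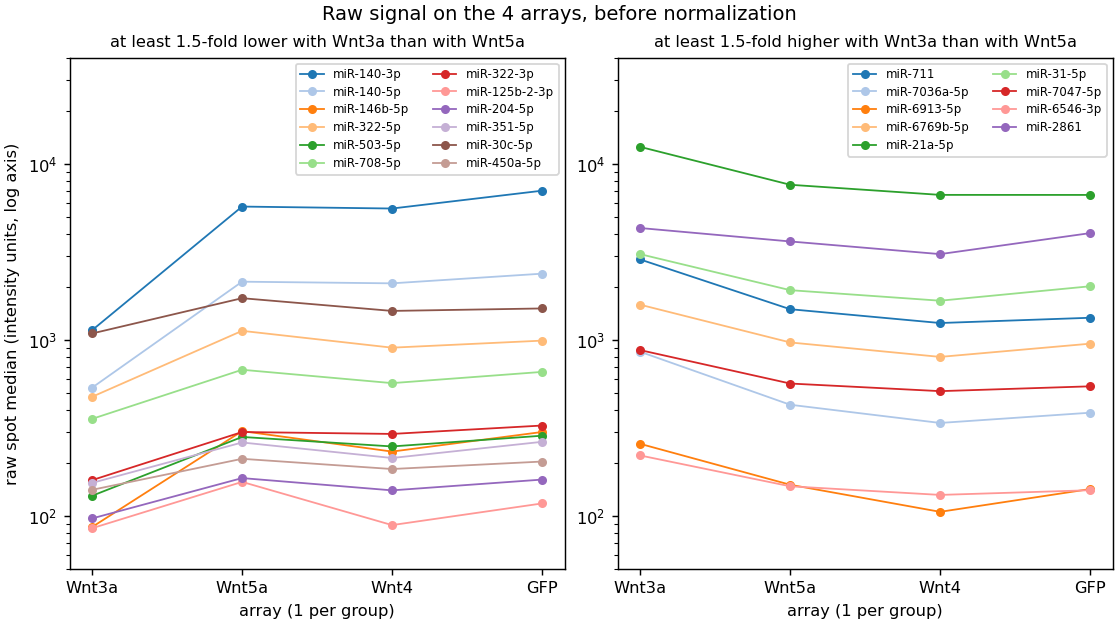
Raw spot medians (intensity units, log axis) on the Wnt3a, Wnt5a, Wnt4 and GFP arrays for the 12 miRNAs at least 1.5-fold lower (left) and the 9 at least 1.5-fold higher (right) with Wnt3a than with Wnt5a. The lines join the arrays of 1 miRNA, with Wnt3a at the left end. Most step between the Wnt3a and Wnt5a arrays and change less across the other 3, as for miR-140-3p at 1135, 5727, 5582 and 7049 units.

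The clusters related to miR-17-92, known for promoting proliferation, were slightly higher with Wnt3a. The miRNAs with the miR-17 seed are shown because 5 of the 6 were above 0, where the 6 with the miR-15/16 seed were all below.
miR-17-5p: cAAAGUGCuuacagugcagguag
miR-20a-5p: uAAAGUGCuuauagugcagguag
miR-20b-5p: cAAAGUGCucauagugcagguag
miR-106a-5p: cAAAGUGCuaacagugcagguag
miR-93-5p: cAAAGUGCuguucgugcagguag
miR-106b-5p: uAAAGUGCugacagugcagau

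miR-17-5p gave 718 units with Wnt3a and 515 with Wnt5a, a difference of 0.42. miR-20a-5p was at 0.33 (576 and 457 units), miR-20b-5p at 0.31 (495 and 387) and miR-106a-5p at 0.28 (559 and 465). miR-93-5p at 0.03 and miR-106b-5p at -0.02 lay within the SE of 0.17 from spots. miR-20a-5p, miR-20b-5p and miR-106a-5p lay within 2 such SE. The first 4 of the printed miRNAs come from the clusters on chromosomes 14 and X, and the last 2 from the cluster on chromosome 5. Among miRNAs within 10 kb of each other, the 4 on chromosome 14 had a median of 0.29 and the 3 on the X chromosome 0.28. Over all 3 clusters, 14 of 28 probes were detected on both arrays, 12 above and 2 below 0, with a median of 0.17, and none passed 1.5-fold. With the background column 9 were above and 5 below, with a median of 0.09, and under median scaling 11 and 3, with a median of 0.15.

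Other families had medians near 0. For miR-24 and its cluster partners miR-23 and miR-27, 7 of 11 probes were detected on both arrays, with a median of 0.05, and miR-23a-3p at 4120 and 4737 units was itself at 0.05. That median was below 0 without normalization and under median, upper quartile and control-probe scaling. The miR-199 and miR-214 cluster, made from the mesenchymal transcript Dnm3os, had all 5 probes detected with a median of 0.02, which was below 0 under median and upper quartile scaling. Both medians were also below 0 in the rescaled deposited table. The miR-143 and miR-145 cluster, known in smooth muscle and mesenchymal cells, had 3 of 5, all above 0, with miR-143-3p at 0.40 (1813 and 1303 units) and miR-145a-5p at 0.07. The p53-linked miR-34 family had 5 of 11 with a median of 0.08, and the miR-181 family 2 of 10 with 0.14. The miR-183, miR-96 and miR-182 cluster, reported downstream of beta-catenin, had no probe detected on both arrays. Detected with Wnt3a only were 2 of its 6 probes, beside 562 of 1898 over all. Its median raw signal was 78.7 units with Wnt3a and 87.8 with Wnt5a, where blank spots averaged 73.0 and 97.1. Signals this close to the blank level cannot show whether the cluster differed between the 2 arrays. Of the large imprinted Dlk1-Dio3 cluster 6 of 92 probes were detected on both arrays, with a median of -0.12, and of the Sfmbt2 intron cluster 20 of 71, with a median of 0.09. None of the miRNAs named in this paragraph passed 1.5-fold.

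Lists drawn by pathway showed no common direction. Of 46 probes for miRNAs reported to target Wnt ligands, receptors, inhibitors or beta-catenin regulators, 14 were detected on both arrays. The difference was above 0 for 6 and below 0 for 8, with a median of -0.05. With the background column 11 were above and 3 below, with a median of 0.19. Only miR-31-5p passed 1.5-fold, and miR-27b-3p at 0.21, miR-26a-5p at -0.12 and miR-29a-3p at -0.22 were typical of its bright members. Of 33 probes for miRNAs linked to TGF-beta signalling, which the series pairs with Wnt signalling, 14 were detected on both arrays. The difference was above 0 for 10 and below 0 for 4, with a median of 0.09. It was -0.02 under median scaling, -0.01 under upper quartile scaling and -0.19, with 4 above and 10 below, in the rescaled deposited table. Past 1.5-fold were miR-21a-5p, higher, and both arms of miR-140, lower, which is 3 of 14 beside 4.19% over all. Among probes for either arm of reported regulators of osteoblast differentiation, 46 of 91 were detected on both arrays. Of these, 19 were above and 26 below 0, with a median of -0.08. With the background column 31 were above and 15 below, with a median of 0.08, and with no filter 46 and 44 of 91, with a median of 0.01. At least 1.5-fold lower were 5 of the 46, and 2 were higher, beside 2.40% and 1.80% over all. The 5 lower ones were miR-322-5p, miR-322-3p, miR-125b-2-3p, miR-204-5p and miR-30c-5p, and the higher ones miR-31-5p and miR-2861. An arm such as miR-322-3p or miR-125b-2-3p counts here whether or not it was itself reported as a regulator. miR-2861, reported to promote osteoblast differentiation, gave 4324 units with Wnt3a, 3627 with Wnt5a, 3073 with Wnt4 and 4045 with GFP. The normalized difference of miR-2861 was 0.61, more than its raw values differ, but -0.02 in the rescaled deposited table. Its clustered partner miR-3960 was at 0.09 (2309 and 2096 units). The mesenchymal markers had a median of 0.10 over 14 probes, with miR-21a-5p and miR-125b-2-3p at the ends. Muscle, blood cell and neural markers had medians of -0.10, 0.03 and -0.10 over the 2, 3 and 4 probes detected on both arrays, and the only pluripotency marker detected on both, miR-290a-5p, was at 0.01.

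**Figure D3:**
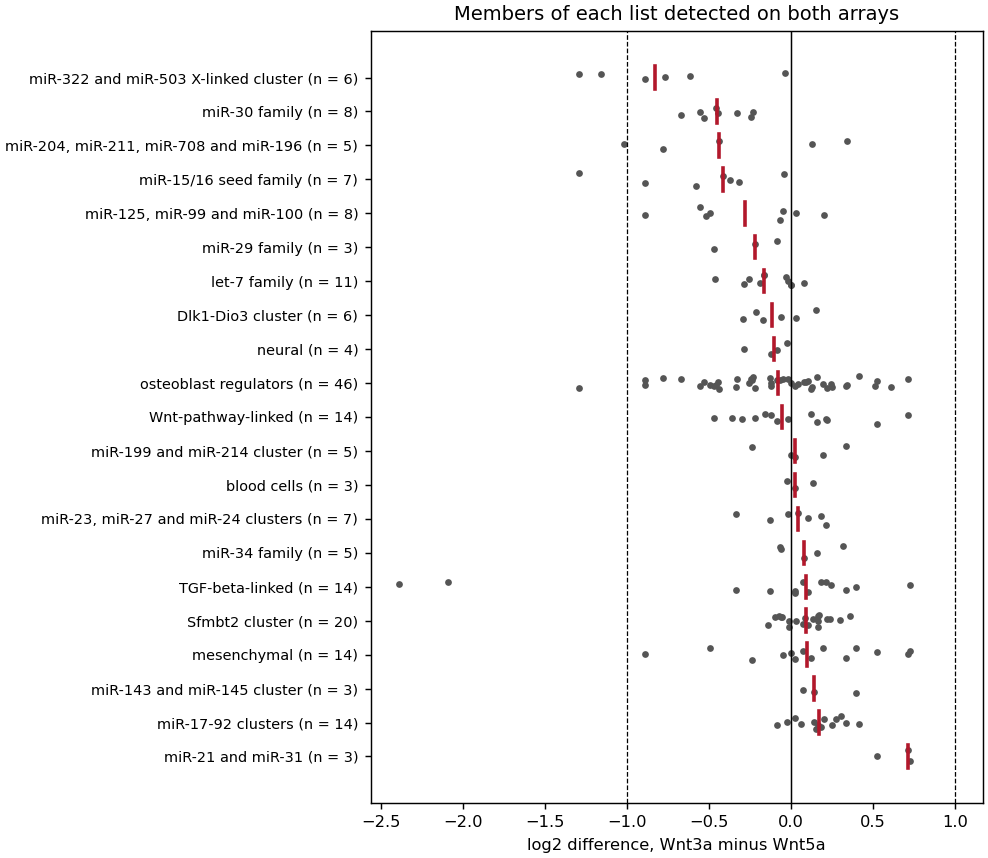
Log2 difference (Wnt3a minus Wnt5a) of the members of each list with at least 3 members detected on both arrays, 1 point per probe, with the median as a red bar and dashed lines at 2-fold. Medians run from -0.83 for the X-linked miR-322 and miR-503 cluster to 0.71 for miR-21 and miR-31.

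The Wnt4 and GFP arrays give a view of which side of each difference stood apart. All 21 miRNAs past 1.5-fold were detected on 4 arrays. The Wnt3a level was the highest or the lowest of the 4 for 21 of the 21, and for 339 of the 482 miRNAs detected on all 4 arrays. The Wnt5a level was the highest or lowest for 5 of the 21 and for 190 of the 482. Measured from the mean of the Wnt4 and GFP arrays, the 21 lay a median of 0.79 away with Wnt3a and 0.04 away with Wnt5a. Over the 482 those distances were 0.14 and 0.06. Because the 21 were picked for the Wnt3a to Wnt5a difference, these counts describe them and test nothing.

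Detection on 1 array only added little to these differences. With Wnt3a alone 562 miRNAs were detected, and with Wnt5a alone 1. The 562 had a median raw signal of 87.5 units with Wnt3a and 93.8 with Wnt5a, beside blank means of 73.0 and 97.1. As raw signals they were not brighter with Wnt3a, but the blank level differed between the arrays. Set against the higher of the dim value and the limit, 37 of them had a bound above 1-fold, and the highest bounds were at least 1.29-fold, for miR-6364 (135 and 109 units) and miR-155-5p. With the limit taken from negative control probes the 562 became 64 and the 1 became 16, and at 5 SD they became 243 and 3. The part of the blank level in these counts was not tested. The miRNA detected with Wnt5a alone was miR-654-5p from the imprinted Dlk1-Dio3 region, with 64.7 units with Wnt3a and 151 with Wnt5a, at least 1.87-fold lower with Wnt3a.

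Across hairpins, arms tended to differ alike, but not always. For 50 hairpins both arms were detected on both arrays. Both arms were below 0 for 16, both above for 18 and of opposite sign for 16, and the median gap between arms was 0.17. As a description over the 50 pairs, whose arms share a hairpin and an array, Pearson's r was 0.79, and 0.58 without miR-140. Besides miR-204, the widest gaps included miR-351, with its 5p arm at -0.77 and its 3p arm at -0.04, and miR-193b, with 0.00 and -0.53. Besides miR-21a-5p, the brightest miRNAs on the Wnt3a array were all under 1.5-fold: miR-6366 (18389 units with Wnt3a and 16162 with Wnt5a) was at 0.14, miR-2137 (15099 and 11640) at 0.31, miR-3968 (13343 and 17183) at -0.34 and miR-1902 (12095 and 10833) at 0.00.

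The difference varied with base composition. For the 414 of 501 miRNAs with a RefSeq sequence matched by name, the share of G and C in the mature sequence correlated with the difference at a Pearson's r of 0.30. This describes miRNAs that share 2 arrays, and their level (r 0.06) and length (r -0.02) went with it hardly at all when either was set against the difference. When the miRNAs were split into 4 groups by G and C content, the lowest group spanned 30 to 50%. There 37 miRNAs were above 0 and 74 below, with a median of -0.08. In the highest group, 68 to 100%, 57 were above and 24 below, with a median of 0.10. From low to high, the 4 groups held 116, 94, 121 and 83 miRNAs. Of those at least 1.5-fold lower that have a sequence here, 8, 2, 1 and 0 lay in these groups. Of those at least 1.5-fold higher, 1, 2, 4 and 2 did. Of the sequences printed here, miR-21a-5p had 36.4% G and C, miR-15b-5p 40.9% and miR-17-5p 47.8%. Set against the Wnt4 array, the same correlation was 0.34 for Wnt3a minus Wnt4 (448 miRNAs) and 0.11 for Wnt5a minus Wnt4 (400 miRNAs). The part of base composition in the family differences was not tested.

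**Figure D4:**
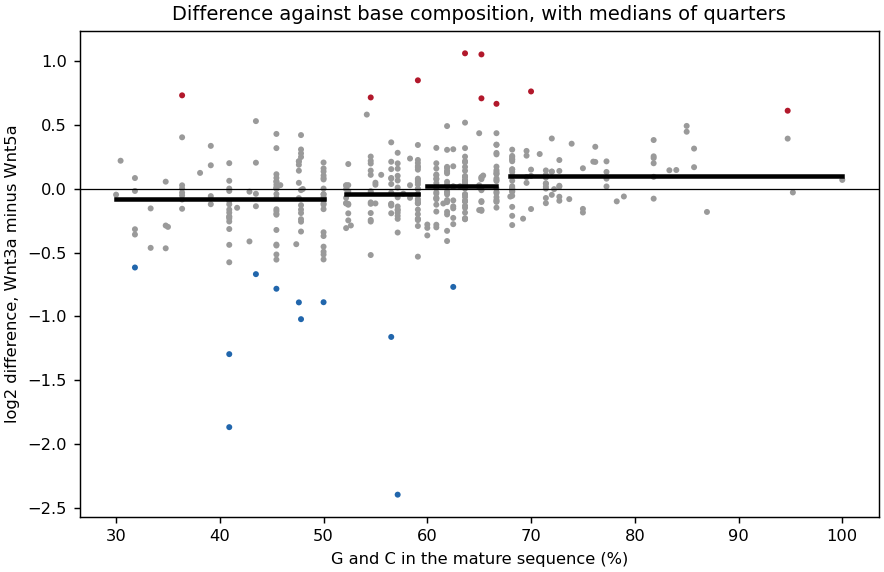
Log2 difference (Wnt3a minus Wnt5a) of 414 miRNAs against the percentage of G and C in their mature sequence, with black bars at the median of each of 4 groups and coloured points past 1.5-fold. The group medians are -0.08, -0.04, 0.02 and 0.10 from low to high G and C.

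Past the thresholds the order of the miRNAs was gradual. Just inside 1.5-fold lower was miR-450a-5p at -0.62, and just outside were miR-15b-5p at -0.58 and miR-30a-5p at -0.56. On the higher side miR-2861 at 0.61 was just inside, and miR-6937-5p at 0.58, miR-31-3p at 0.53 and miR-210-3p, a hypoxia-responsive miRNA, at 0.52 were just outside. Both arms of miR-140 and miR-146b-5p stood below the rest, and the next miRNA in order was miR-322-5p at -1.29.

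**Figure D5:**
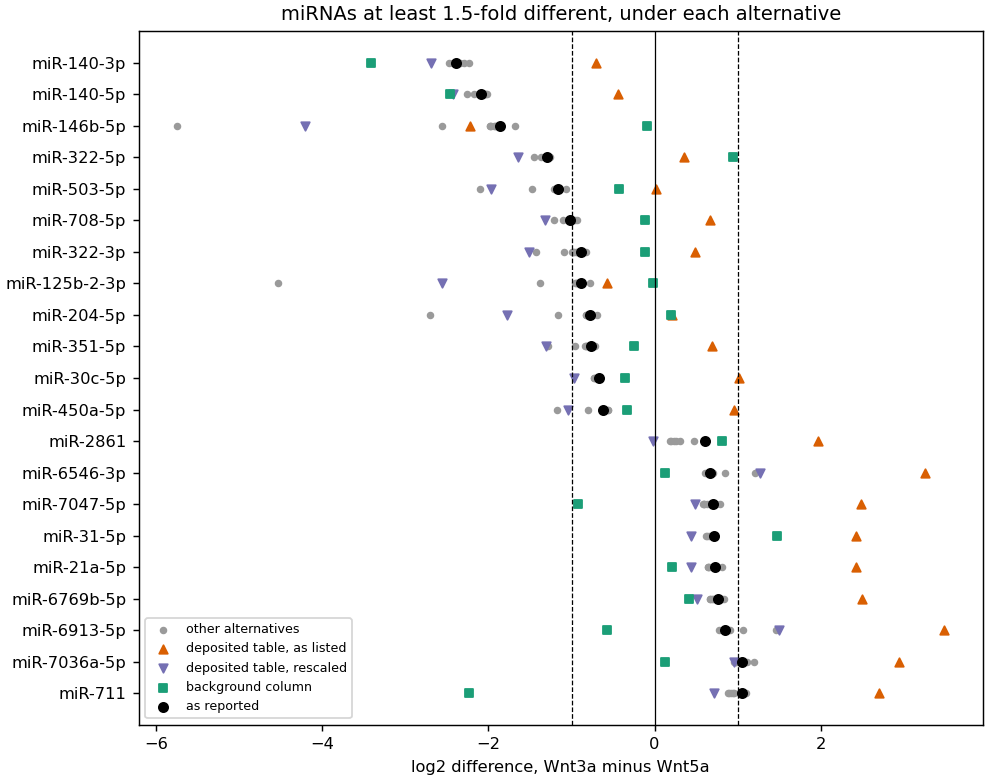
Log2 difference (Wnt3a minus Wnt5a) of the 21 miRNAs past 1.5-fold as reported (black) and under each alternative processing, with dashed lines at 2-fold. miR-140-3p stays between -3.42 and -0.70, whereas miR-711 runs from -2.23 to 2.70.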

How the data were processed

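Total RNA of 4 samples was labelled with Hy5 and hybridised to 4 one-colour LNA miRNA arrays, per the labels' protocols, and scanned at 635 nm at 3 gains, per the file headers. The deposited scanner files give a raw median intensity per spot, which was used, and a background median that follows the spot's own signal (r 0.966 on the Wnt3a and 0.945 on the Wnt5a array). The authors' deposited table of processed intensities served as an alternative. It lists 514 miRNAs on both arrays, and how it was scaled is not stated in the labels or headers. Of 1900 miRNA probes, 2 whose GFP spots carried a bad-spot mark were left out, which left 1898 with 1 spot each.

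Normexp (offset 50) was run on the spot medians of all spots, controls were dropped, and the 1898 probes were quantile-normalized over 4 arrays (limma 3.58.1 in R 4.3.3). The level is log2. Counts and plots used Python 3.11.15, numpy 2.4.6, pandas 2.3.3 and matplotlib 3.10.9. The detection limit was 2 SD over the mean of an array's blank spots, taken from their central 95%. The number of arrays limits the precision, and the scripts were tested on simulated data. Alternatives changed the background correction, normalization, detection limit and source of values. A changed or dropped detection limit decides only which miRNAs are counted and leaves their differences as they are.

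Named miRNAs were those at least 2-fold different, up to 10 each way between 1.5-fold and 2-fold, the brightest detected on 1 array only and on the Wnt3a array, the brightest and most different members of each of 30 lists, and neighbours within 10 kb of 2-fold miRNAs. Others were named after their values were seen. A part of the rule that ranked miRNAs by correlation over the arrays was not used, since 4 arrays are too few. The comparison and lists were chosen with earlier results of these data known. Sequences and positions are from RefSeq, build GRCm38.p6, where 1612 of 1898 probes matched by name.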

Additional observations from a re-analysis of the deposited data

How the results depend on the processing

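The number of miRNAs at least 2-fold different (8, with 2 higher and 6 lower) became 33 (9 and 24) with plain subtraction of the blank mean, 42 (24 and 18) with the background column, 503 (502 and 1) in the deposited table and 39 (27 and 12) in that table rescaled. Median and upper quartile scaling gave 5 different and 0 higher, cyclic loess 0 higher, and no normalization or control-probe scaling 1 higher. At 1.5-fold (21, with 9 and 12) there were 32 different and 14 higher with a normexp offset of 16, 76 (26 and 50) with plain subtraction, 75 (45 and 30) with the background column, 508 (506 and 2) in the deposited table and 130 (90 and 40) when it was rescaled. The deposited table shifts the median difference to 2.04, and 0.05 after rescaling. Among the 2-fold miRNAs, directions turned for miR-322-5p (0.94 with the background column, 0.35 in the deposited table), miR-503-5p (0.0191) and miR-708-5p (0.67) in the deposited table, and miR-711 (-2.23 with the background column). Of all 21 past 1.5-fold, 8 turned in the deposited table (also miR-322-3p, miR-204-5p, miR-351-5p, miR-30c-5p and miR-450a-5p), 5 with the background column (also miR-204-5p, miR-7047-5p and miR-6913-5p) and 1, miR-2861, in the rescaled table. Apart from the table's own shift, the cause was not tested. Of the counts at both folds, 63 of the recomputed values stayed within 1.5 times and 33 did not. The correlation with base composition, added after seeing the data, lay between 0.13 with no filter and 0.33 at 5 SD, but was -0.07 with the background column. Signal over background limits the 562 miRNAs seen with Wnt3a only. No paired analysis was possible because each group has 1 array.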
